A study of Homo sapiens with 20 samples.

Results

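The class II group of the human leukocyte antigen (HLA) genes was followed in TPC-1, a line derived from papillary thyroid carcinoma, through 8 listed rows of the deposited RNA-seq table, out of 54261 rows in all. The rows were chosen by name: CD74, HLA-DRA, HLA-DRB1, HLA-DPA1, HLA-DPB1, HLA-DMA, HLA-DMB and CIITA. All 8 were found. The coculture group held 6 libraries of TPC-1 cells kept for 48 h with PMN-MDSCs (polymorphonuclear myeloid-derived suppressor cells), neutrophil-like cells that restrain T cells. The control group held 4 libraries of TPC-1 cells left untreated. Both groups share the same cell line, and no allele or agent other than the PMN-MDSCs is named. The sources used here do not say where the PMN-MDSCs came from, how both cell types were in contact, or whether they were separated again.

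Class II molecules are pairs of an alpha and a beta chain that show peptides from the endosome to CD4 T cells. They are made mainly by B cells, dendritic cells and macrophages, and interferon gamma can induce them in epithelial cells, thyroid follicular cells among them. CD74, the invariant chain, holds the new pairs and blocks their groove, HLA-DM removes its last fragment, and CIITA is the coactivator that switches the class II promoters on. CIITA binds no DNA itself but sits on the factors RFX, CREB and NF-Y, which bind the X and Y boxes upstream of these genes.

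Promoter sequence from RefSeq (build GRCh38.p14) was at hand for 6 of the 8 members. The last 150 bases before the annotated start are shown for CD74, the member with the most counts, and for HLA-DRB1, HLA-DMA and HLA-DMB, whose windows hold both motifs marked here. Capitals mark matches, on either strand, to AGNNACNGA (an X1-like core) and to ATTGG (the core of the Y box, CCAAT on the other strand). These motifs were chosen after the windows had been read, and overlapping matches run together.
CD74, chr5:150412911-150413060, minus strand: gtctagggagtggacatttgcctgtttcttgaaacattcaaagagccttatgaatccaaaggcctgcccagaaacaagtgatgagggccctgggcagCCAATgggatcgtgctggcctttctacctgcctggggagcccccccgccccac
HLA-DRB1, chr6:32589849-32589998, minus strand: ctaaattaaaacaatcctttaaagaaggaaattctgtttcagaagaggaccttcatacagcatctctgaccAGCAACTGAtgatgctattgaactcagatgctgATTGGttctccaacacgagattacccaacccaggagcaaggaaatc
HLA-DMA, chr6:32953098-32953247, minus strand: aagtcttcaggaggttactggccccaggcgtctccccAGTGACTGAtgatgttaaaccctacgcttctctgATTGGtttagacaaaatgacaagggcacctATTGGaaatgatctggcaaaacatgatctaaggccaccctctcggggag
HLA-DMB, chr6:32941029-32941178, minus strand: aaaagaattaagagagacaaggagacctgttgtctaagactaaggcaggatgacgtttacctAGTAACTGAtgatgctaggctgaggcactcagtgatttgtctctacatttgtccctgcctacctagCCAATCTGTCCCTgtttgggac
AGNNACNGA followed by ATTGG on the same strand with at most 30 bases between them was present for HLA-DRB1 and HLA-DMA, in 2 of the 7 member windows of 250 upstream bases. It was present in 0.35% of all 35116 such windows. AGNNACNGA on either strand was in 4 of the 7 member windows, 1 of 2 windows of HLA-DPA1 among them, and in 12.3% of all windows. ATTGG on either strand was in 5 of the 7 and in 32% of all. A longer form that was also searched, CTGATTGG, was in 2 of the 7 and in 3.81% of all. Since the motifs were chosen on the member windows, these shares are no test of members against all windows. The CD74 window held ATTGG (as CCAAT) and no AGNNACNGA. A match describes these letters and is not a measured binding site. The lack of a match does not show that a promoter is without such a box.

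How far the class II rows can be read depends on how the table covers the HLA region. Of 159 protein-coding genes placed on chromosome 6 with a start between 29 and 34 Mb, 100 (62.9%) had 0 counts in all 10 libraries. The same held for 111 of 862 (12.9%) elsewhere on chromosome 6 and for 2486 of 18431 (13.5%) on other chromosomes. Genes that nearly every cell uses were among them, named here after their values were seen: FLOT1, a membrane scaffold protein, DDX39B, an RNA helicase of splicing, ABCF1, a translation factor, and TUBB, a beta tubulin, were each listed at 0. HLA-E, a class I molecule of most nucleated cells, had 6 counts over the coculture libraries and 0 over the controls. A 0 of a member in this region is therefore given only as listed at 0. Other genes of the window were counted, among them HLA-B with 10514 and HLA-C with 25325 counts over all libraries. Of the 159 genes, 14 were tested. HLA-DRA and HLA-DRB1 are placed by the table on contigs outside the primary chromosomes, and CD74 and CIITA lie on chromosomes 5 and 16, outside the region.

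**Figure D1:**
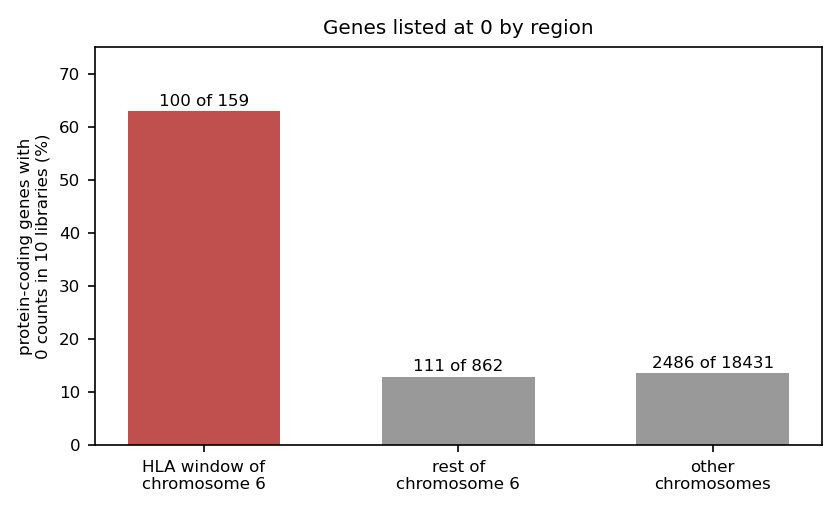
Share of protein-coding genes with 0 counts in all 10 RNA-seq libraries (bars, percent, with the numbers of genes above) for the HLA window of chromosome 6, the rest of chromosome 6 and the other chromosomes. The HLA window stands at 62.9%, the rest of chromosome 6 at 12.9%.

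Library totals ran from 40237801 to 48197608 counts, and a floor of 3 counts per library was 0.0632 to 0.0758 CPM (counts per 1000000 counts of the scaled library). PAX8, a thyroid transcription factor that marks the labelled tissue, was at 625 ± 107 CPM in coculture and 508 ± 11.2 CPM in controls (SD, n = 6 and 4), while TSHR and NKX2-1, other thyroid genes, had 1 count each over all libraries. Coculture 1 and 2 stood apart from the other 8 libraries on the first principal component, at -66.1 and -60.6 against 0.908 to 31.8. The labels do not tie the libraries to separate cultures. The p-values thus reflect the spread among these libraries alone, and that spread may be technical. In bulk RNA, fewer cells of a type and less RNA per cell cannot be told apart.

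CD74 was the member that rose. It had 125, 89, 41, 390, 39 and 156 counts in coculture 1 to 6, against 1, 0, 0 and 1 counts in controls 1 to 4. In CPM these were 2.87, 1.87, 0.978, 9.27, 0.985 and 3.76 in coculture, against 0.0214, 0, 0 and 0.0226 in controls. Each coculture library lay above each control, coculture 4 was the highest, and coculture 3 and 5 were the lowest of the 6. Over all libraries 840 counts in coculture stood against 2 in controls, a ratio of 283 with a 95% counting interval of 78.2 to 2342 (exact binomial, counting error only). The edgeR log2 fold change was 7.83 ± 1.06 (SE) with an adjusted p of 0.00181, where the size of the change depends on the prior count since controls held so few reads. An exact two-sided permutation test of the CPM over all 210 splits gave p = 0.0476, with 0.00476 the smallest it can give. This test was run for the 7 members with any count, and its p-values are not adjusted. Coculture 4 held 46.4% of the CD74 counts, and without it the coculture mean was 2.09 ± 1.21 CPM (n = 5) in place of 3.29 ± 3.12 (n = 6), with an edgeR adjusted p of 0.000668.

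Of the 8 members, 2 had enough counts for the filter, CD74 and HLA-DRA, and CD74 was called. Over all 15629 genes tested, 1.14% were called higher and 0.186% lower in coculture, while 2.45% had every coculture library above every control and 1.17% every one below. Among the 1807 tested genes with a control mean under 0.5 CPM, 4.81% were called higher. A gene nearly without control reads, CD74 and HLA-DRA included, passes the filter through coculture alone, so its direction was set by the filter.

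HLA-DRA, the alpha chain of the DR molecule, was high in the libraries where CD74 was high. It had 28, 19, 8, 91, 0 and 34 counts in coculture 1 to 6, against 0, 1, 0 and 0 in controls. In CPM these were 0.642, 0.400, 0.191, 2.16, 0 and 0.819 in coculture, against 0, 0.0247, 0 and 0 in controls. Coculture 4 was again the highest, and coculture 5, listed at 0, lay within the control range, so the groups overlapped. How reads were counted on the contig that carries HLA-DRA is not stated, and whether that 0 comes from the counting was not tested. The ratio of summed counts, 180 in coculture and 1 in controls, was 121 (95% counting interval 21.5 to 4820). The edgeR log2 fold change of 6.34 ± 1.45 missed the threshold (adjusted p = 0.0627), and the exact two-sided permutation test gave p = 0.0905. The edgeR adjusted p was 0.0117 without coculture 5 and 0.0487 without coculture 3, both calls, and without coculture 1, 2, 4 or 6 the gene failed the filter. On leaving out any single control it was tested and not called, with edgeR adjusted p of 0.199 to 0.225. The coculture mean was 0.702 ± 0.774 CPM (n = 6), and 0.410 ± 0.331 CPM without coculture 4 (n = 5).

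**Figure D2:**
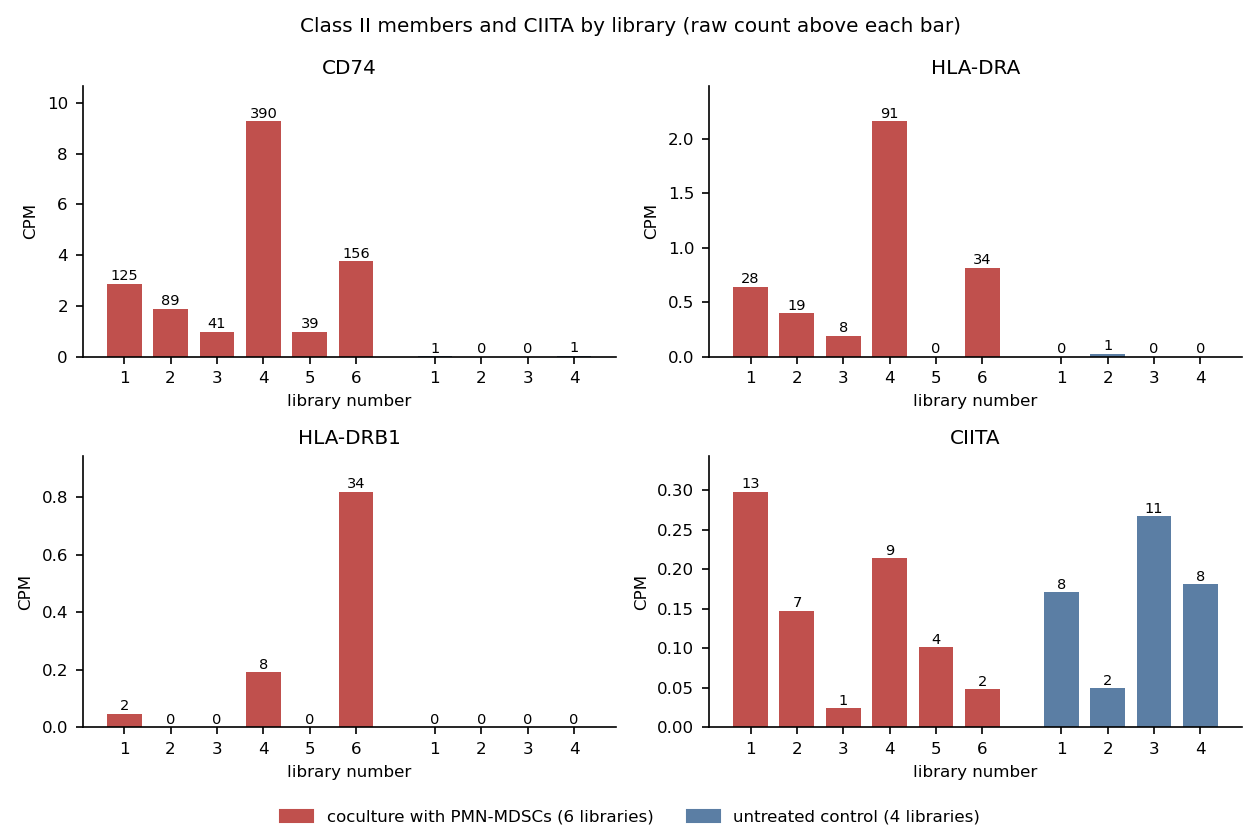
CPM of CD74, HLA-DRA, HLA-DRB1 and CIITA in each of the 6 coculture and 4 control libraries (bars, linear axis from 0, raw counts above them). CD74 ranges from 39 to 390 counts in coculture and from 0 to 1 in controls, while CIITA ranges from 1 to 13 in coculture and from 2 to 11 in controls.

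The balance of both transcripts was nearly the same in 5 of the 6 coculture libraries, although their sum ranged from 49 to 481 counts there. HLA-DRA made up 18.3% (95% Clopper-Pearson interval 12.5 to 25.4%) of the CD74 and HLA-DRA counts in coculture 1. It made up 17.6% (10.9 to 26.1%) in coculture 2 and 16.3% (7.32 to 29.7%) in coculture 3. It was 18.9% (15.5 to 22.7%) in coculture 4 and 17.9% (12.7 to 24.1%) in coculture 6. In coculture 5 it was 0 of 39 counts. The upper end of its interval, 9.03%, lay below the lower ends of the intervals of coculture 1, 2, 4 and 6. These limits cover counting error only, and they do not cover reads lost in counting for a gene listed at 0. CD74 itself was about as high in coculture 5 (39 counts) as in coculture 3 (41 counts, beside 8 of HLA-DRA). Per kilobase of the lengths in the table, the level of CD74 was 2.89 times that of HLA-DRA over the 5 libraries with both.

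**Figure D3:**
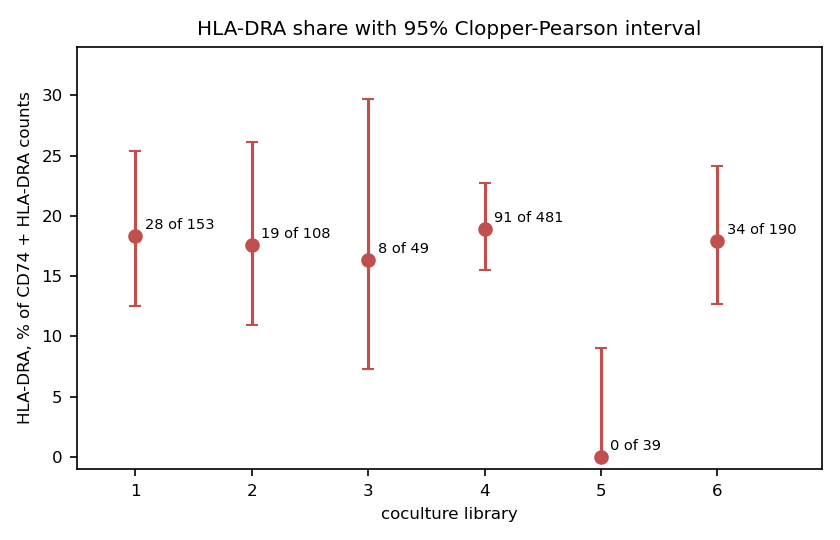
HLA-DRA counts as a percentage of CD74 plus HLA-DRA counts in each coculture library (points, with 95% Clopper-Pearson intervals for counting error only, and the counts beside them). Libraries 1, 2, 3, 4 and 6 sit between 16.3% and 18.9%, and library 5 has 0 of 39 counts.

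HLA-DRB1, the beta chain that pairs with HLA-DRA, did not share that balance. It had 2, 0, 0, 8, 0 and 34 counts in coculture 1 to 6, against 0 in each of the 4 controls. Coculture 6 held 77.3% of them, and 3 of the 6 coculture libraries were listed at 0 like the controls. The coculture mean of 0.176 ± 0.323 CPM was 2.52 times a floor of 3 counts per control library. Without coculture 6 the mean of 0.0472 CPM lay below that floor. Since reads may be lost in counting for a gene listed at 0, no minimum fold change was taken from this. It failed the filter, and in a fit without the filter its edgeR adjusted p was 0.614. That fit called 0.718% of 30070 genes higher. The exact two-sided permutation p was 0.40. The paralogs HLA-DRB3, HLA-DRB4 and HLA-DRB5, near copies whose reads the counting could have split from HLA-DRB1, had 19 counts together in coculture and 0 in controls.

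The DM and DP chains were at or near 0. HLA-DMA, the alpha chain of the peptide editor, had 0, 1, 1, 0, 0 and 7 counts in coculture 1 to 6 and was listed at 0 in all 4 controls. HLA-DMB, its partner chain, was listed at 0 in all 10 libraries. HLA-DPA1 had 1 count, in coculture 1, and HLA-DPB1, its beta partner, 1 count, in coculture 2. In the table HLA-DPA1 runs on the minus strand of chromosome 6 from 33064569 to 33080778 and HLA-DPB1 on the plus strand from 33075926 to 33089696. These intervals overlap, and without a stated strand setting their reads cannot be told apart there. All 4 genes lie in the region where most genes are listed at 0, and none passed the filter. In the fit without the filter the edgeR adjusted p was 0.598 for HLA-DMA and 0.66 for each DP gene.

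CIITA was present at a low level in both groups. It had 13, 7, 1, 9, 4 and 2 counts in coculture 1 to 6, against 8, 2, 11 and 8 in controls 1 to 4. The groups overlapped over most of their range, with coculture 1 the highest and coculture 3 the lowest of all 10 libraries. Means were 0.139 ± 0.104 CPM in coculture and 0.167 ± 0.0894 CPM in controls (SD, n = 6 and 4), and the ratio of summed counts was 0.837 (95% counting interval 0.499 to 1.42). The exact two-sided permutation p was 0.648, and the edgeR adjusted p without the filter was 0.905. This counting interval leaves out the spread between libraries, so a change of moderate size was not detectable at this depth. In the controls CIITA held 29 of the 32 counts of the 8 members (90.6%), in coculture 36 of 1111 (3.24%). Coculture 3 and 6, with 1 and 2 counts of CIITA, had 41 and 156 counts of CD74. The deposited table places CIITA at chr16:10866208-10941562 (plus strand) and CD74 at chr5:150401637-150412936 (minus strand).

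Per kilobase of the deposited lengths, mean coculture levels (RPKM) ranked CD74 first at 1.67 ± 1.59, followed by HLA-DRA at 0.549 ± 0.605 and HLA-DRB1 at 0.328 ± 0.603. HLA-DMA at 0.0317 ± 0.0589 and CIITA at 0.0223 ± 0.0167 came next. CD74 was above HLA-DRA in all 6 coculture libraries. HLA-DRA was above HLA-DRB1 in 4, equal at 0 in 1 and below it in 1, and their spreads overlapped. No order was read among HLA-DRB1, HLA-DMA and CIITA, since HLA-DRB1 and HLA-DMA were each listed at 0 in 3 of the 6 libraries. The table gives HLA-DRB1 a length of 536 bases, which raises its level per kilobase against a gene counted over its whole transcript. In controls, CIITA was at 0.0268 ± 0.0144 RPKM, above CD74 at 0.00558 ± 0.00645.

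Other class II genes were low or listed at 0. Of 12 listed, 8 had 0 counts in all libraries and 12 had 0 in the controls, and none passed the filter. HLA-DQA1 and HLA-DQB1, the chains of the DQ molecule, had 32 and 36 counts over the coculture libraries. Of these, 24 and 33 came from coculture 4, the library with the most CD74.

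The factors that CIITA works with were well expressed and not called. All 12 genes of the list of class II promoter factors were tested, with 0 higher, 0 lower and a median log2 fold change of -0.0034, where the median over all tested genes was 0.01. RFX5, a DNA-binding subunit of RFX, was at 76 ± 8.04 CPM in coculture and 66.7 ± 5.32 CPM in controls (edgeR adjusted p = 0.57). NFYA, a subunit of the Y box factor, was at 54.1 ± 1.80 CPM in coculture and 66.1 ± 6.26 CPM in controls (edgeR adjusted p = 0.14). With DESeq2 the log2 difference of NFYA, -0.30, had an adjusted p of 0.0114.

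The route by which interferon gamma induces CIITA had 11 tested genes of 12, with 0 called and a median log2 fold change of 0.16. IFNG itself had 1 count over all 10 libraries. IRF1, a transcription factor that acts on a CIITA promoter, was at 28 ± 6.08 CPM in coculture and 20.4 ± 2.99 CPM in controls (edgeR adjusted p = 0.349). NLRC5, the relative of CIITA that drives class I genes, was at 27.7 ± 4.48 CPM in coculture and 24.8 ± 2.13 CPM in controls (edgeR adjusted p = 0.722). Without coculture 1 and 2 the log2 fold change of IRF1 was 0.60, with an edgeR adjusted p of 0.0264.

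In antigen processing, CTSS rose. This gene for cathepsin S, the protease that trims the invariant chain in antigen-presenting cells, had 154, 67, 114, 150, 118 and 189 counts in coculture 1 to 6, against 10, 9, 3 and 4 in controls 1 to 4. The groups did not overlap, where 2.45% of all tested genes had every coculture library above every control. Its coculture libraries were more even than those of CD74. The log2 fold change was 4.35 ± 0.42 (edgeR adjusted p = 0.000238). With a control mean of 0.150 CPM it too passed the filter through coculture. It was the 1 gene higher of 12 tested, with 0 lower and a median log2 fold change of -0.05. Over all tested genes 1.14% were higher. CTSL, cathepsin L, was at 167 ± 11.1 CPM in coculture and 178 ± 36.5 CPM in controls. IFI30, the lysosomal thiol reductase, was at 36.5 ± 11.1 CPM in coculture and 29.2 ± 4.89 CPM in controls, and neither was called.

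Among costimulatory genes and membrane partners of class II, 2 of 12 tested were higher, 0 lower, with a median log2 fold change of 0.19. Over all tested genes 1.14% were higher and 0.186% lower. ICAM1, the ligand of a leukocyte integrin, was higher, at 229 ± 90.3 CPM in coculture and 51.9 ± 9.34 CPM in controls. The other was CD82, a tetraspanin, at 244 ± 58.8 CPM in coculture and 145 ± 6.36 CPM in controls. The edgeR adjusted p of CD82, 0.046, was up to 0.158 when a single library was left out. CD86, a costimulatory ligand of professional antigen-presenting cells, had 24 counts over the coculture libraries and 0 over the controls. CD40, a costimulatory receptor, was at 84.4 ± 12.2 CPM in coculture and 68.8 ± 3.26 CPM in controls (edgeR adjusted p = 0.359).

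Class I genes had 13 tested of 19 listed, with 0 called and a median log2 fold change of 0.33. HLA-B, a class I heavy chain, had a log2 fold change of 1.35 ± 0.31 (edgeR adjusted p = 0.0646), and HLA-C 0.68 ± 0.18 (adjusted p = 0.122). With DESeq2 both were called, with adjusted p of 0.000545 and 0.0172. TAP1, PSMB8 and PSMB9, interferon-induced genes of peptide supply that lie between the class II genes, were listed at 0 in all 10 libraries.

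**Figure D4:**
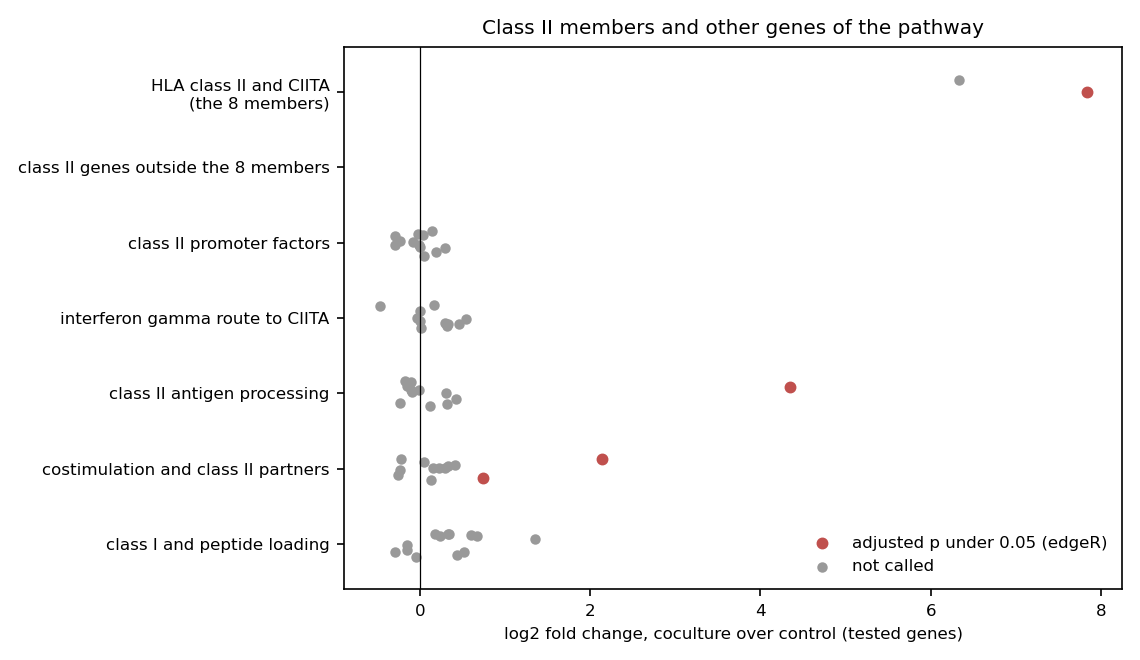
Log2 fold change, coculture over control, of each tested gene (points) of the 8 members and of 6 lists of related genes, one row per list, red where the edgeR adjusted p is under 0.05. CD74 lies at 7.83 and HLA-DRA at 6.34, CTSS at 4.35, and no gene of the promoter factor, interferon gamma or class I lists is called.

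Genes of cells that normally carry class II were read in the same libraries. LYZ, the lysozyme of myeloid cells, was at 15.4, 9.79, 14.8, 14, 13.7 and 15.8 CPM in coculture 1 to 6, against 0.0427 to 0.203 CPM in controls. It was even across coculture libraries among which CD74 ranged from 0.978 to 9.27 CPM. The B cell surface genes MS4A1, CD79A and CD79B, picked from the B cell list after their values were seen, had 15, 2, 0, 118, 4 and 3 counts together in coculture 1 to 6, against 6, 4, 0 and 4 in controls 1 to 4. Coculture 4, the highest library of CD74, HLA-DRA, HLA-DQA1 and HLA-DQB1, was also the highest of these B cell genes, while coculture 6, second in CD74, was within the control range. Over the whole list of 10 B cell genes this match was absent, with 12.2, 11.2, 7.11, 10.4, 9.96 and 6.96 CPM in coculture 1 to 6. PAX5, a B cell transcription factor and the most abundant of the list, had its lowest count in coculture 4, at 171. IRF8, a transcription factor of dendritic cells, monocytes and B cells, had 26, 14, 14, 54, 17 and 16 counts in coculture 1 to 6, against 0 in each of the 4 controls. Their part in the CD74 result was not tested. Without coculture 4 CD74 stayed above all controls, at 0.978 to 3.76 CPM.

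Over the whole marker lists, summed levels were 105 to 185 CPM in coculture and 80.3 to 102 CPM in controls for 14 monocyte and macrophage genes, with C1QA at 0 in all libraries. CD68, also present in the untreated TPC-1 cells, was the largest part. It was at 120 ± 31.0 CPM in coculture and 89.1 ± 10.1 CPM in controls, and was not called (edgeR adjusted p = 0.416). CD163 and FCGR1A had 2 counts each in coculture and 1 each in controls. C1QB and C1QC had 1 count each, in coculture. Of the 6 tested genes of that list, 5 were higher and 0 lower, where 1.14% of all tested genes were higher. Of these 5, 4 had a control mean under 0.5 CPM and entered the test through coculture, so their direction was set by the filter. For 13 dendritic cell genes the sums were 11.1 to 12.8 CPM in coculture and 6.11 to 7.54 CPM in controls, with CLEC9A, XCR1, CLEC4C and LILRA4 at 0 in all libraries. Of 3 tested, 2 were higher, ITGAX and IRF8, the second without a control read. BATF3, the largest part in both groups, was not called. For 10 B cell genes the sums were 6.96 to 12.2 CPM in coculture and 9.63 to 13.1 CPM in controls. PAX5, also present in the untreated TPC-1 cells, was the largest part, and 0 of 3 tested genes were called. For 14 neutrophil and PMN-MDSC genes the sums were 0.59 to 2.17 CPM in coculture and 0 to 0.097 CPM in controls. FCGR3B, CXCR2, ELANE, ARG1, MMP8 and PROK2 of that list had 0 counts in all libraries, and S100A9, with 1 control count, was the 1 gene that entered the test, through coculture, so its direction was set too. For 12 T and NK cell genes the sums were 0.0758 to 1.26 CPM in coculture and 0 to 0.121 CPM in controls, with 0 tested. Of 13 tested pan-leukocyte genes, 8 were higher and 0 lower, 5 of the 8 with a control mean under 0.5 CPM. The list had sums of 734 to 1160 CPM in coculture and 678 to 745 CPM in controls. Its largest parts, CYBA and RAC2, were at 331 and 215 CPM in coculture and 231 and 172 CPM in controls, and neither was called. Of 8 tested thyroid and epithelial genes 1 was higher, CLDN1, a tight junction protein, with sums of 1486 to 1635 CPM in coculture and 1207 to 1341 CPM in controls. Of 3 tested endothelial and fibroblast genes 0 were called, with sums of 2.90 to 145 CPM in coculture and 3.13 to 6.47 CPM in controls. CD53, a leukocyte tetraspanin, had 425 counts in coculture and 0 in controls, and PTPRC, the leukocyte antigen CD45, had 70 in coculture and 1 in controls.

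**Figure D5:**
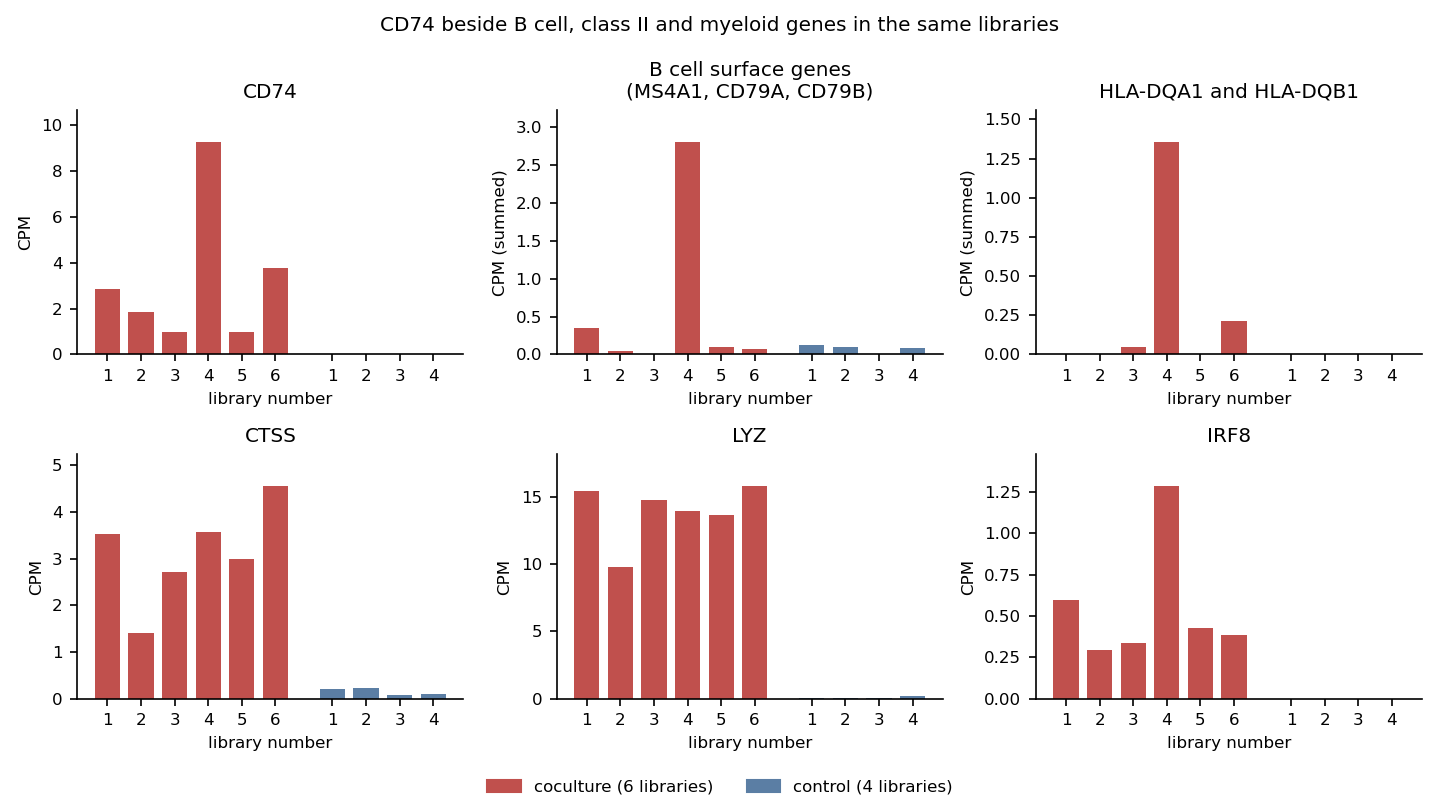
CPM of CD74, of 3 B cell surface genes summed, of HLA-DQA1 and HLA-DQB1 summed, and of CTSS, LYZ and IRF8 in each of the 6 coculture and 4 control libraries (bars, linear axes from 0 that differ between panels). Coculture 4 is the highest bar for CD74, the B cell genes, HLA-DQA1 and HLA-DQB1, and IRF8, while LYZ lies between 9.79 and 15.8 CPM in all 6.

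The genes whose pattern over the 10 libraries was most like that of HLA-DRA were CCL22, a chemokine of dendritic cells and macrophages, NCKAP1L, a blood cell actin regulator, BST2, the antiviral protein tetherin, MYO1G, a myosin of blood cells, and C6orf58. Likeness was the mean absolute difference of log2(CPM + 0.25), each gene centred on its own mean, among 15628 other genes, and it was 0.19 for CCL22 and up to 0.34 for C6orf58. CCL22 had 96 counts in coculture 4, 41 in coculture 6 and 2 in coculture 5, where HLA-DRA had 91, 34 and 0. Nearest to CD74 were CXCL8 at 0.32, CSF3, CXCL2, CD14 and MMP9 at 0.52, all more abundant in coculture than CD74 apart from CD14. Of these CXCL8 had 27750 counts in coculture 4 and 7762 in coculture 5. With a pseudocount of 1 CPM, 3 of the 5 genes nearest to HLA-DRA stayed among the nearest 5 and 0 of the 5 nearest to CD74.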

How the data were processed

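RNA-seq of TPC-1 cells was analysed, 6 coculture and 4 control libraries; the miRNA libraries of the series were not used here. The table the authors deposited holds raw counts of reads per gene symbol, with a length per gene. The submitters' processing notes name HISAT2 2.0.4, BWA and GRCh38.p10 without saying what each was for. The sources used here give no counting tool, annotation or strand setting. The number of unused value columns was 0.

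Counts were fitted in R 4.3.3 with edgeR 4.0.16 (TMM, filterByExpr, robust glmQLFit, glmQLFTest, Benjamini-Hochberg over 15629 genes, threshold 0.05), coculture over control. SE is the log2 fold change divided by the square root of F. CPM use TMM library sizes, and RPKM divide them by the deposited length. Alternatives were DESeq2 1.42.0, its size factors, limma-voom (limma 3.58.1), no filter, a replicate block, leaving out each library, and, added after seeing the data, leaving out coculture 1 and 2. Of 24191 features with no count in any library, none was tested. No molecular identifiers are named, and intervals and floors therefore cover only counting error. No 2 libraries of a group agreed within sampling noise (chi-square per degree of freedom of at least 7.22).

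The members and lists were chosen with earlier results of these data known. Named were the members, of each list up to 4 genes by adjusted p and the 2 most abundant, the 5 genes nearest in pattern to CD74 and to HLA-DRA, and LYZ, PTPRC, CD53, IRF1 and NLRC5; not every gene so named is described or reported here. Outside this rule, further genes were picked once their values had been seen. They were the B cell surface genes, the genes listed at 0, the thyroid genes other than PAX8, IFNG, CD86, CTSL and IFI30. HLA-E, COL3A1, DCN, the HLA-DRB paralogs, CD163, FCGR1A, C1QB and C1QC were picked in the same way. The list entries MARCHF1 and MARCHF8 were matched under older symbols.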

Additional observations from a re-analysis of the deposited data

Results flagged for a closer look

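Samples far from the others of their group were sought for each member in coculture and in controls, in 10 groups whose values differed, by the gap to the nearest library over the range of the group. For normally spread values chance alone would flag about 1 in 20 groups. Counts near 0 do not follow that rate, and a group with counts in 1 library alone is always flagged. CD74 in coculture 4, at 9.27 CPM (390 counts), was far above the other 5 coculture libraries, with a gap of 0.665 of the range. HLA-DRB1 in coculture 6 was at 0.819 CPM (34 counts) with a gap of 0.768 of the range, and HLA-DMA in the same library at 0.169 CPM (7 counts) with a gap of 0.859. The others rest on 1 count each: HLA-DRA in control 2 at 0.0247 CPM, HLA-DPA1 in coculture 1 at 0.0229 CPM and HLA-DPB1 in coculture 2 at 0.0211 CPM. HLA-DRA in coculture 4, at 2.16 CPM, did not pass this criterion.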

How the results depend on the processing

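CD74 was called under every alternative run, its direction being set by the filter in all but the fit without one (log2 fold change 7.82, adjusted p = 0.0152). Its log2 fold change was 6.90 with limma-voom, 8.15 with DESeq2 and 7.18 to 8.27 on leaving out a library. HLA-DRA was called, and the members called higher were 2 in place of 1, with DESeq2 (log2 fold change 6.63, adjusted p = 0.000191) and with the replicate block (6.50, adjusted p = 0.0293). It was not called with limma-voom (4.46, adjusted p = 0.280) or without the filter (6.32, adjusted p = 0.159). Its log2 fold change was 6.01 to 7.93 on leaving out a library, with 1 to 2 members called; without coculture 1, 2, 4 or 6, and without coculture 1 and 2 together, it failed the filter. Over all genes, 207 were called (178 higher, 29 lower). The count was 439 with DESeq2 (333 and 106), 110 with the replicate block (100 and 10) and 322 without coculture 1 and 2 (112 lower). Leaving out a library gave 116 to 227 called, 112 to 204 higher and 4 to 36 lower; the count was 119 without control 3 and 116 without control 4. Of the related gene lists 3 genes were called, 8 with DESeq2, 5 without coculture 1 and 2, and 2 to 6 on leaving out a library. The cause of these shifts was not tested. Same-numbered libraries correlated in their deviations from the group means at 0.35, -0.08, 0.20 and 0.14 for numbers 1 to 4, and coculture 2 and 4 correlated best with another number, so the numbers were not taken as a pairing and the block is no evidence of a stronger effect. Member counts under about 3 per library lie at the limit of this depth.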

Other observations

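Summed over 12 T and NK cell genes, the coculture libraries 1 to 6 held 55, 15, 7, 29, 3 and 46 counts, against 2, 0, 5 and 0 in controls 1 to 4. Coculture 1 was the highest there, and coculture 6, the highest library of HLA-DRB1 and HLA-DMA, came next. Coculture 1 held 2943 of the counts of the fibroblast genes COL1A2, COL3A1 and DCN, picked after their values were seen, and the other 5 coculture libraries 0 to 13. Its level of CD74, 2.87 CPM, lay below those of coculture 4 and 6.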
